A study of Mus musculus with 40 samples.

Results

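The collagen genes of mouse embryonic stem cells were followed through differentiation in 2 genotypes. They were taken as every gene symbol written as Col, a number, a and a number, which gave 43 of the 23228 symbols present in all 8 RNA-seq libraries. By collagen class, 11 were fibrillar, 6 basement membrane, 9 FACIT (collagens that sit on the surface of fibrils) and 17 other. The 4 groups, of 2 libraries each, were cells homozygous for GLP 3A with all-trans retinoic acid (RA), wild type (WT) cells with RA, untreated GLP 3A cells and untreated WT cells. RA was given at 1 uM. All cells are labelled as embryonic stem cells of mixed C57BL/6 background. Feeders and serum were replaced by feeder-free 2i medium for 2 passages before analysis, and the mutant allele was made in R1 stem cells. GLP, encoded by Ehmt1, is a histone H3 lysine 9 methyltransferase, and the series asks about its role in spreading histone modifications. LIF was taken away when RA was added, so the effects of both cannot be told apart. The labels do not say how long RA was present, what the 3A mutation changes, how many cell lines stood for each genotype or whether the replicates were separate cultures. The p-values therefore measure the spread between these libraries, which may be technical.

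Collagens are secreted chains that wind around each other into rope-like helices. Fibrillar collagens pack into the fibrils of connective tissue, collagen IV forms the sheet-like network of basement membranes, and FACIT collagens bind to fibrils and link them to other matrix. RA treatment of pluripotent cells is a classical way to obtain matrix-producing cells, among them the parietal endoderm that lays down collagen IV and laminin.

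The collagen IV genes lie in head-to-head pairs, in which the genes of a pair are transcribed away from a shared stretch of DNA. The promoters of both pairs expressed here are shown because Col4a1 and Col4a2 kept similar proportions in each RA-treated library while Col4a5 and Col4a6 did not. Those of the fibrillar genes Col1a2 and Col3a1 are shown as members that were near 0 without RA and among the most abundant with it. The windows run from 250 bases before to 50 bases after the start of the gene in RefSeq on build GRCm38.p6, 5′ to 3′ on the gene's own strand. Capitals mark 4 short motifs, each read on both strands. They are the GC box spelled GGGCGG with its reverse complement CCGCCC, the CCAAT box with its reverse complement ATTGG, the TATA box spelled TATAAA with its reverse complement TTTATA, and the nuclear receptor half-site spelled AGGTCA with its reverse complement TGACCT. The Col4a1 window is chr8:11312777-11313076 on the minus strand.
Col4a1: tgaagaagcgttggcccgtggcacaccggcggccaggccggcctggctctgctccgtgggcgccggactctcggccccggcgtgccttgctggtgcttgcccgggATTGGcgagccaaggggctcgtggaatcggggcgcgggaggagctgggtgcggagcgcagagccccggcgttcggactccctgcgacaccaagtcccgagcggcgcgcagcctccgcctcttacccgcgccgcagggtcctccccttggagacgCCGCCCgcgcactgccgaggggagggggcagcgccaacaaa
The Col4a2 window is chr8:11312555-11312854 on the plus strand.
Col4a2: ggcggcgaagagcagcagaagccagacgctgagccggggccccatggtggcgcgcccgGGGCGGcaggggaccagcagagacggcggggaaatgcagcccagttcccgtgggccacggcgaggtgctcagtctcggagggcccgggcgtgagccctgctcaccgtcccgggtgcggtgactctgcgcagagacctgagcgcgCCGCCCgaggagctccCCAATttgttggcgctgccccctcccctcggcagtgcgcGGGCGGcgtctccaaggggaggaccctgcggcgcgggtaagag
The Col4a5 window is chrX:141475169-141475468 on the plus strand.
Col4a5: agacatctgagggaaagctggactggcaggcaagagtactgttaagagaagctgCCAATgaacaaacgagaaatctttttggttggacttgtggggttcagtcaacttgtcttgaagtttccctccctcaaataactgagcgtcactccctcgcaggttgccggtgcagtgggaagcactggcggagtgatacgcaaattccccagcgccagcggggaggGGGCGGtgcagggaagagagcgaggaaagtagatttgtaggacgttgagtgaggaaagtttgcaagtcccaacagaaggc
The Col4a6 window is chrX:141474027-141474326 on the minus strand.
Col4a6: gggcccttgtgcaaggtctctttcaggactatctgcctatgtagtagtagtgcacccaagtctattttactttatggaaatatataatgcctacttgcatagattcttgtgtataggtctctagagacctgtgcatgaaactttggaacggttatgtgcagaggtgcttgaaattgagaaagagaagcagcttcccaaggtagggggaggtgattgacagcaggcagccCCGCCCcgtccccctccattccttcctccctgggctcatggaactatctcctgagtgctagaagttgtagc
The Col1a2 window is chr6:4505368-4505667 on the plus strand.
Col1a2: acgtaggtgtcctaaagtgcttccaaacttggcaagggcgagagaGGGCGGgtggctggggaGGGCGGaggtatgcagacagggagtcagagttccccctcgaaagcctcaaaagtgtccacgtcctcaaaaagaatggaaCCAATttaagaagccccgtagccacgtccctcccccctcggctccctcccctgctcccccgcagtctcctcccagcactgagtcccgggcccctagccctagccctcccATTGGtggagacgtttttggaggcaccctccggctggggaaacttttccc
The Col3a1 window is chr1:45311288-45311587 on the plus strand.
Col3a1: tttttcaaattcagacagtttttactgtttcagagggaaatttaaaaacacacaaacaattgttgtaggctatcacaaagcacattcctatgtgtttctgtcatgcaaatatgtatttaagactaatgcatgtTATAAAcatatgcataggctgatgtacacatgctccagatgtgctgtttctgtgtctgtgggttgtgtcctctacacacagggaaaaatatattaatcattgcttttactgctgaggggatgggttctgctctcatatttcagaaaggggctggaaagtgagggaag

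The windows of Col4a1 and Col4a2 overlapped by 78 bases, and their starts were 21 bases apart. In RefSeq the start of Col4a2 lay inside Col4a1, so the genes overlapped at their starts, with no gap between them. The GC box occurred 3 times in the Col4a2 window, 2 times in that of Col1a2 and 1 time each in those of Col4a1, Col4a5 and Col4a6. The Col3a1 window held no GC box and 1 TATA box, at position -117 from the start. The starts of Col4a5 and Col4a6 were 1343 bases apart, and their windows did not overlap. GC content was 74.0% and 73.7% in the Col4a1 and Col4a2 windows, 52.7% and 48.3% in those of Col4a5 and Col4a6, and 52.7% in the median window of all genes. RefSeq windows were found for 35 of the 43 collagen genes, 38 windows in all. GGGCGG was in 23 of these 38 and in 35.7% of the 32851 windows of all genes. CCAAT was in 13 of 38, against 37.4% of all windows. TATAAA was in 5 of 38, against 13.6%, and AGGTCA was in 8 of 38, against 16.3%. These are matches of letters and not shown binding sites.

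The deposited unit was RPKM, which scales reads by the length of the gene and the size of the library, with no counts. Judged from the smallest values, relative depth was 0.95 to 1.23 in the replicate 1 libraries and 0.43 to 0.57 in the replicate 2 libraries, with replicate 1 of untreated WT cells set to 1.0. Values near 0 therefore rest on fewer reads in replicate 2. RPKM summed to between 509341 and 822877 per library, lower in each of the 4 RA libraries than in each untreated one. The stem cell label could be checked in untreated cells, where 10 of 10 pluripotency markers reached 1 RPKM in both libraries of each genotype. Their summed level was 179 to 385 RPKM in RA-treated GLP 3A cells and 149 to 270 RPKM in RA-treated WT cells. In untreated cells it was 4410 to 4453 RPKM for GLP 3A and 5317 to 5393 RPKM for WT. Dppa5a alone made up 285 of the 385 RPKM in replicate 1 of RA-treated GLP 3A cells. With RA, 9 of the 10 reached 1 RPKM in both GLP 3A libraries and 6 in both WT libraries. Nanog was at 13.1 and 6.30 RPKM in RA-treated GLP 3A cells and 1.51 and 0.814 RPKM in RA-treated WT cells. Sox2 lay the other way, at 21.4 and 35.4 RPKM in RA-treated GLP 3A cells and 38.3 and 47.2 RPKM in RA-treated WT cells. Ehmt1 was at 13.0 and 13.9 RPKM in RA-treated GLP 3A cells, against 24.4 and 23.5 RPKM in RA-treated WT cells. Untreated GLP 3A cells had 14.1 and 14.3 RPKM and untreated WT cells 18.4 and 17.7 RPKM of Ehmt1. Its level says nothing about the 3A mutation itself.

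Untreated cells of both genotypes expressed a single collagen gene strongly, Col18a1, whose protein is a basement membrane collagen that can be cut to release endostatin. Col18a1 was nonetheless counted in the other class. The class named basement membrane here holds the collagen IV genes only, so its shares leave Col18a1 out. With RA, genes of the fibrillar, basement membrane and FACIT classes joined Col18a1. Collagen RPKM summed to 495 and 468 in RA-treated GLP 3A cells, against 81.2 and 72.4 in untreated GLP 3A cells. In WT cells the sum was 736 and 491 with RA, against 100.5 and 95.3 untreated. At a group mean of 1 RPKM or more were 20 of the 43 genes in RA-treated GLP 3A cells, 18 in RA-treated WT cells, 5 in untreated GLP 3A cells and 3 in untreated WT cells. In every library 21 members stayed under 1 RPKM, and 6 of them stayed under 0.1 RPKM. In bulk RNA, fewer cells of a type and less RNA per cell cannot be told apart.

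**Figure D1:**
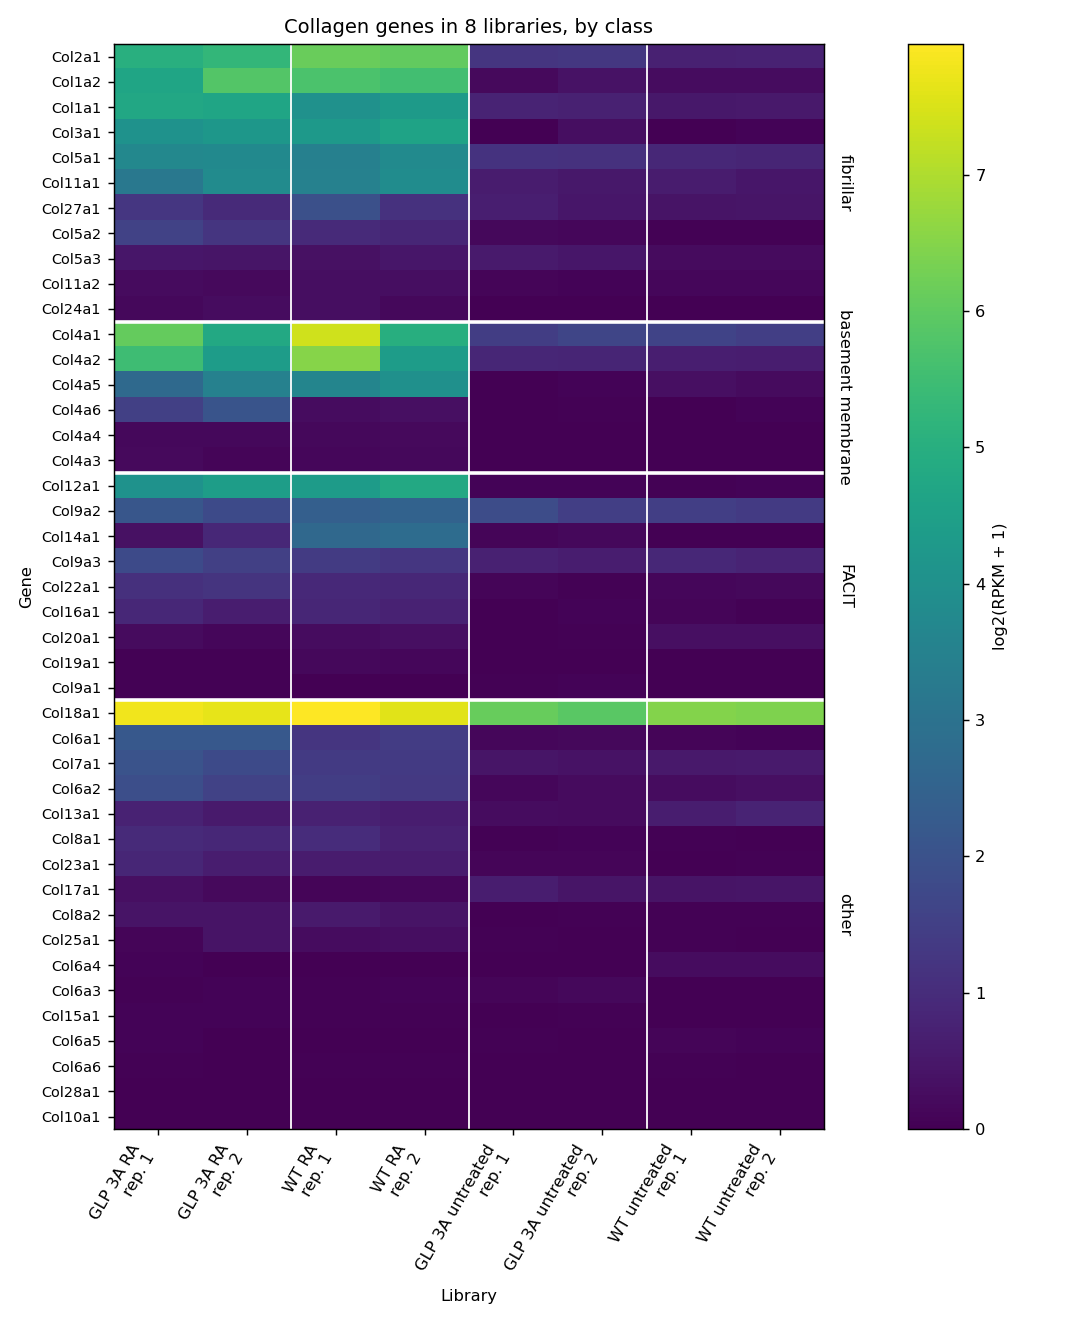
Levels of the 43 collagen genes as log2(RPKM + 1), shown by colour, with genes in rows grouped by class and the 8 libraries in columns. Col18a1 is high in all 8 libraries, from 59.95 to 248 RPKM, while most fibrillar and collagen IV genes are high in the 4 RA libraries.

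Col18a1 made up 43.8% ± 0.56 of summed collagen RPKM in RA-treated GLP 3A cells, against 83.3% ± 0.81 in untreated GLP 3A cells (SD, n = 2 each, as for every such value below). In WT cells its share was 36.5% ± 4.0 with RA and 88.6% ± 0.0044 untreated. Fibrillar genes held 30.0% ± 7.5 in RA-treated GLP 3A cells, 30.8% ± 9.2 in RA-treated WT cells, 6.87% ± 0.45 in untreated GLP 3A cells and 3.35% ± 0.11 in untreated WT cells. Basement membrane genes of the collagen IV family held 18.4% ± 7.6 and 25.01% ± 16.2 in RA-treated GLP 3A and WT cells, and 3.72% ± 0.75 and 2.80% ± 0.12 in untreated GLP 3A and WT cells. FACIT genes held 5.41% ± 0.80 and 6.40% ± 2.7 in RA-treated GLP 3A and WT cells, and 4.04% ± 0.45 and 2.99% ± 0.19 in untreated GLP 3A and WT cells. The share of each class in RA-treated cells overlapped between the genotypes, except for the other class, which held 46.3% ± 0.75 in GLP 3A and 37.8% ± 4.4 in WT cells.

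**Figure D2:**
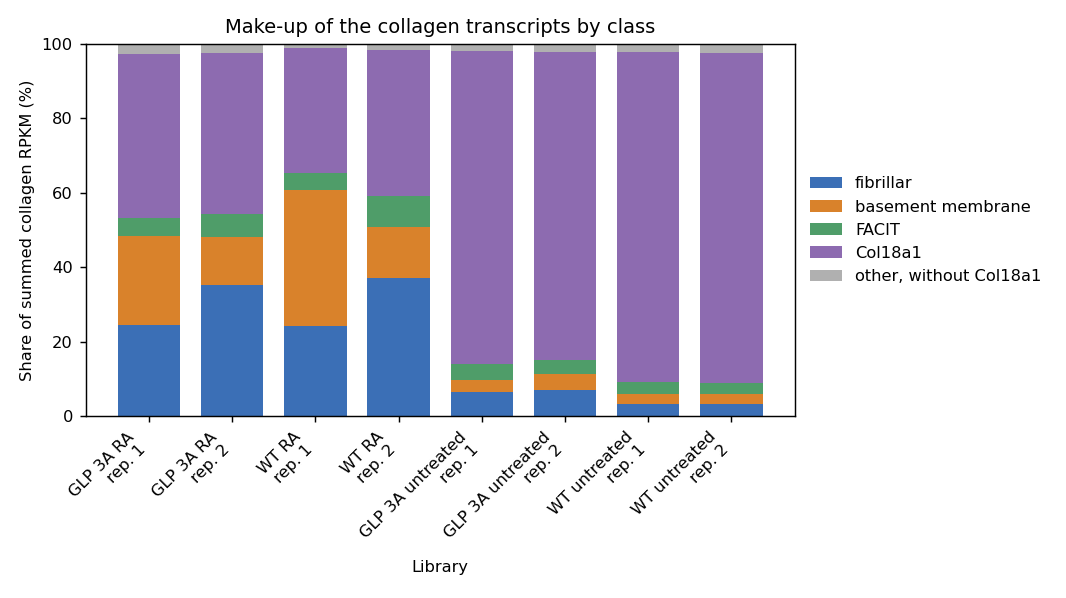
Share of summed collagen RPKM by class in each of the 8 libraries, in percent. The other class, mostly Col18a1, fills 84.8% to 91.0% of the untreated libraries and 34.7% to 46.8% of the RA libraries.

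Tests used limma on log2(RPKM + 1) with Benjamini-Hochberg adjustment over all genes tested, and calls were made below an adjusted p of 0.05. Differences are log2 of RPKM + 1 with the standard error, a scale that understates the change of genes near 0. Of the 43 members, 21 had at least 1 RPKM in at least 2 libraries and were among the 13198 genes tested. Of these, 16 reached that level only with RA-treated libraries counted, so the filter itself favoured a rise with RA among them. The class counts are therefore given over all 43 members from a fit with no filter on low values. In that fit, of 19619 genes, RA-treated GLP 3A cells had 28 collagen genes higher and 1 lower than untreated GLP 3A cells, where 26.3% of all genes were higher and 26.9% lower. RA-treated WT cells had 30 higher and 2 lower, where 25.8% of all genes were higher and 24.7% lower. The median difference of the 43 was 0.54 in GLP 3A and 0.58 in WT cells, against 0.003 and 0.00 over all genes. Among the 21 genes of the filtered fit, 18 were called higher in GLP 3A cells, beside 32.3% of all tested genes higher and 38.1% lower. In WT cells 20 were called higher, beside 33.7% higher and 34.8% lower. At an unadjusted p under 0.05 the fit without a filter had 2 members lower in GLP 3A and 3 in WT cells. Adjusted p-values of single genes below are from the filtered fit unless stated otherwise. For the 16 genes admitted through RA-treated libraries, those of the RA comparisons are bound up with the filter.

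Fibrillar collagens rose with RA in both genotypes. In the fit without a filter 9 of 11 were higher in GLP 3A cells, with a median difference of 2.59, and 11 of 11 were higher in WT cells, with a median of 2.78. Col1a1 encodes the alpha 1 chain of collagen I, the main collagen of bone, skin and tendon. It was at 26.1 and 24.5 RPKM in RA-treated GLP 3A cells and 15.4 and 19.0 RPKM in RA-treated WT cells, against 0.731 and 0.666 RPKM in untreated GLP 3A cells and 0.422 and 0.444 RPKM in untreated WT cells. All 4 RA libraries lay above all 4 untreated ones, and the difference was 3.95 ± 0.11 in GLP 3A cells (limma, adjusted p 4.23e-06) and 3.66 ± 0.11 in WT cells (adjusted p 4.5e-06). Its partner Col1a2, the alpha 2 chain, was at 24.7 and 56.2 RPKM in RA-treated GLP 3A cells and 50.8 and 45.8 RPKM in RA-treated WT cells, against 0.149 and 0.301 RPKM in untreated GLP 3A cells and 0.195 and 0.194 RPKM in untreated WT cells. The RA-treated GLP 3A replicates of Col1a2 differed from each other more than the WT ones did. RA differences of Col1a2 were 4.97 ± 0.34 in GLP 3A cells (adjusted p 5.29e-05) and 5.37 ± 0.34 in WT cells (adjusted p 4.01e-05). The proportion of Col1a1 to Col1a2, both per length, was 1.06 and 0.436 in RA-treated GLP 3A cells and 0.303 and 0.415 in RA-treated WT cells, against 4.90 and 2.21 in untreated GLP 3A cells and 2.17 and 2.29 in untreated WT cells. Col1a1 was thus the more abundant of the pair in every untreated library and the less abundant in 3 of the 4 RA libraries.

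Col3a1, which forms fibrils together with collagen I in elastic tissues, was at 15.7 and 17.7 RPKM in RA-treated GLP 3A cells and 19.0 and 23.6 RPKM in RA-treated WT cells, against 0.0131 and 0.220 RPKM in untreated GLP 3A cells and 0.02003 and 0.05438 RPKM in untreated WT cells. It rose by 3.99 ± 0.14 in GLP 3A cells (limma, adjusted p 8.06e-06) and 4.42 ± 0.14 in WT cells (adjusted p 5.31e-06). Col2a1, the fibrillar collagen of cartilage and notochord, was the most abundant fibrillar gene in RA-treated WT cells, at 68.98 and 65.4 RPKM, and had 31.1 and 37.9 RPKM in RA-treated GLP 3A cells. Untreated GLP 3A cells had 1.35 and 1.45 RPKM and untreated WT cells 0.647 and 0.695 RPKM of Col2a1. Neither the RA libraries nor the untreated libraries of Col2a1 overlapped between genotypes, with GLP 3A below WT with RA and above WT without it. RA raised it by 3.88 ± 0.10 in GLP 3A cells (adjusted p 4.22e-06) and 5.35 ± 0.10 in WT cells (adjusted p 2.56e-06). Col5a1, a chain of collagen V that helps to start fibrils, was at 12.3 and 12.6 RPKM in RA-treated GLP 3A cells and 10.1 and 13.0 RPKM in RA-treated WT cells, against 1.26 and 1.19 RPKM in untreated GLP 3A cells and 0.839 and 0.789 RPKM in untreated WT cells. Its RA levels overlapped between genotypes. Col11a1, a minor chain of cartilage fibrils, was at 8.11 and 13.5 RPKM in RA-treated GLP 3A cells and 10.4 and 13.5 RPKM in RA-treated WT cells, and between 0.410 and 0.516 RPKM in the 4 untreated libraries. The RA differences of Col5a1 and Col11a1 lay between 2.59 and 3.13 and were called in both genotypes.

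The remaining fibrillar genes were low. Col5a2 reached 1.96 RPKM and Col27a1 2.83 RPKM in their highest libraries. Col5a2 was called higher with RA in both genotypes. Col27a1, a collagen of developing cartilage, was called in WT cells and not in GLP 3A cells, where it differed by 0.54 ± 0.26 (limma, adjusted p 0.106). The difference of its responses was not called, and its locus overlaps Mir455. Col5a3, Col11a2 and Col24a1 stayed under 0.5 RPKM in every library and were not among the genes tested.

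**Figure D3:**
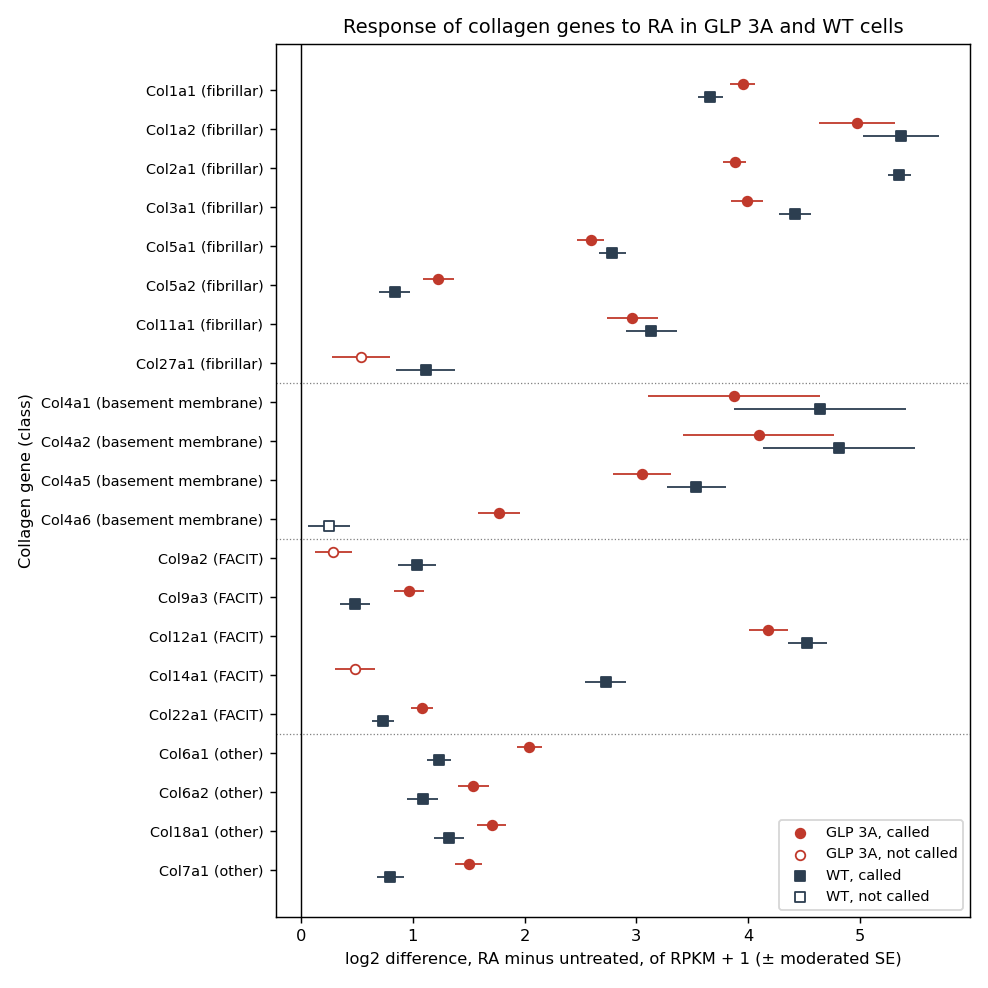
Difference with RA, in log2(RPKM + 1), for the 21 tested collagen genes in GLP 3A and WT cells, ordered by class, with bars of 1 standard error and open symbols for genes not called. Col2a1 and Col14a1 lie higher in WT cells, and Col4a1 and Col4a2 have the widest bars, 0.77 and 0.68.

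Collagen IV genes also rose with RA, and the replicates of Col4a1 and Col4a2 lay far apart. Without the filter, 6 of 6 basement membrane genes were higher in GLP 3A cells, with a median difference of 2.41, and 5 of 6 in WT cells, with a median of 1.89. Col4a1 and Col4a2 encode the chains of the collagen IV network found in nearly every basement membrane. Col4a1 was at 66.0 and 27.0 RPKM in RA-treated GLP 3A cells and 166 and 30.8 RPKM in RA-treated WT cells, against 1.75 and 2.19 RPKM in untreated GLP 3A cells and 2.05 and 1.80 RPKM in untreated WT cells. Col4a2 was at 43.7 and 20.2 RPKM in RA-treated GLP 3A cells and 90.8 and 20.1 RPKM in RA-treated WT cells, against 0.819 and 0.787 RPKM in untreated GLP 3A cells and 0.583 and 0.552 RPKM in untreated WT cells. For both genes all RA libraries lay above all untreated ones, replicate 1 of each RA group lay above replicate 2, and the genotypes overlapped. Col4a1 rose by 3.87 ± 0.77 in GLP 3A cells (limma, adjusted p 0.00423) and 4.64 ± 0.77 in WT cells (adjusted p 0.00201). Col4a2 rose by 4.09 ± 0.68 in GLP 3A cells (adjusted p 0.00191) and 4.81 ± 0.68 in WT cells (adjusted p 0.000979). The proportion of Col4a1 to Col4a2 was 1.51 and 1.34 in RA-treated GLP 3A cells, 1.83 and 1.54 in RA-treated WT cells, 2.13 and 2.78 in untreated GLP 3A cells and 3.51 and 3.26 in untreated WT cells. Col4a1 was the more abundant in all 8 libraries.

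Col4a5 and Col4a6 encode the other head-to-head pair expressed here, on the X chromosome, and their chains serve the basement membranes of kidney and smooth muscle among others. Col4a5 was at 5.54 and 10.3 RPKM in RA-treated GLP 3A cells and 11.3 and 15.1 RPKM in RA-treated WT cells, against 0.0152 and 0.0560 RPKM in untreated GLP 3A cells and 0.242 and 0.182 RPKM in untreated WT cells. It rose by 3.05 ± 0.26 in GLP 3A cells (limma, adjusted p 0.000117) and 3.54 ± 0.26 in WT cells (adjusted p 7.03e-05). Col4a6 was at 1.84 and 3.22 RPKM in RA-treated GLP 3A cells and 0.194 and 0.248 RPKM in RA-treated WT cells. In untreated cells it was listed at 0 and at 0.0309 RPKM for GLP 3A and at 0.00684 and 0.0459 RPKM for WT. The RA-treated GLP 3A libraries lay above all the others. Col4a6 rose by 1.77 ± 0.19 in GLP 3A cells (adjusted p 0.00029), and in WT cells the difference of 0.25 ± 0.19 was not called (adjusted p 0.279). Col4a6 passed the filter only through the RA-treated GLP 3A libraries. Without the filter its adjusted p (limma) was 0.000471 in GLP 3A cells and 0.297 in WT cells. Col4a5 was 3.01 and 3.19 times as abundant per length as Col4a6 in RA-treated GLP 3A cells, against 58.2 and 60.7 times in RA-treated WT cells. The proportions of this pair did not overlap between the RA-treated genotypes. They are made from the same Col4a5 and Col4a6 values, so this adds no support to the difference of Col4a6. Col4a3 and Col4a4, the chains of the kidney glomerulus, were at 0.0829 to 0.160 RPKM in the 4 RA libraries and at most 0.0125 RPKM in the untreated ones.

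Several endoderm and laminin genes were higher in replicate 1 of both RA groups, as Col4a1 and Col4a2 were, whereas Col4a5 and Col4a6 were higher in replicate 2 of both. Lama1, a laminin chain, was at 24.4 and 8.95 RPKM in RA-treated GLP 3A cells and 99.3 and 17.2 RPKM in RA-treated WT cells. Gata4, an endoderm transcription factor, was at 8.32 and 2.13 RPKM in RA-treated GLP 3A cells and 20.04 and 2.90 RPKM in RA-treated WT cells. Sox7, a factor of parietal endoderm, was at 1.88 and 0.455 RPKM in RA-treated GLP 3A cells and 4.37 and 0.596 RPKM in RA-treated WT cells. For these 3, as for Col4a1 and Col4a2, replicate 1 of RA-treated WT cells was the highest library. They were named after their values were seen. Of the 13 parietal and visceral endoderm markers, 10 were higher in replicate 1 and 3 in replicate 2 of RA-treated GLP 3A cells, and 12 were higher in replicate 1 and 1 in replicate 2 of RA-treated WT cells. This lean was not particular to endoderm markers. Of 16 genes for collagen hydroxylation and folding, 12 were higher in replicate 1 of RA-treated GLP 3A cells and 14 in that of WT cells. Of the 10 pluripotency markers these were 9 and 7. Genes for propeptide cleavage and cross-linking leaned to replicate 2, with 7 and 9 of 13. The share over all genes was not taken. Ttr, a transport protein gene, was higher in replicate 2 of both, at 1.05 and 32.8 RPKM in RA-treated GLP 3A cells and 0.702 and 10.01 RPKM in RA-treated WT cells. Plat and Fst were higher in replicate 2 of RA-treated GLP 3A cells. Of 5 basement membrane partners, 3 were higher in replicate 1 of RA-treated GLP 3A cells, with Nid2 and Pxdn higher in replicate 2, and 5 were higher in replicate 1 of RA-treated WT cells. The 13 markers summed to 162 to 190 RPKM in RA-treated GLP 3A cells and 187 to 434 RPKM in RA-treated WT cells, against 36.6 to 57.4 RPKM in untreated GLP 3A cells and 42.9 to 55.2 RPKM in untreated WT cells. Of the 13, 9 were at 1 RPKM or more in both RA-treated GLP 3A libraries and 8 in both RA-treated WT libraries, against 3 in each untreated group. Afp, a visceral endoderm gene, was at most 0.104 RPKM in any library. The part of these markers in the collagen IV levels was not tested.

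**Figure D4:**
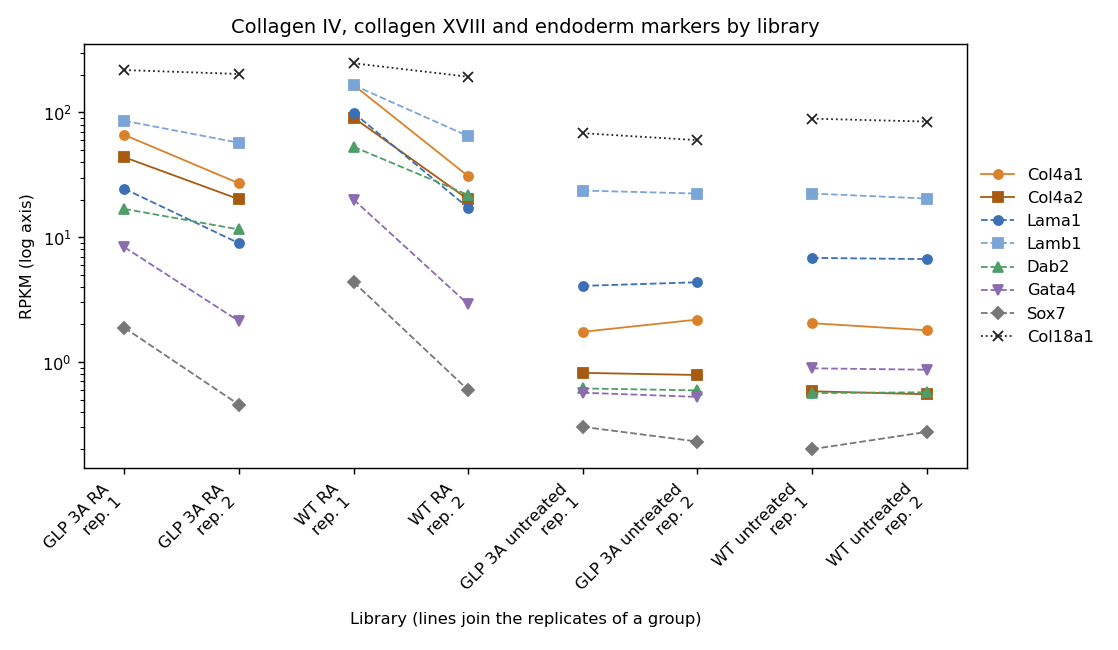
RPKM on a log axis of Col4a1, Col4a2, Col18a1 and the endoderm or laminin genes Lama1, Lamb1, Dab2, Gata4 and Sox7 in the 8 libraries, with lines that join the replicates of a group. In both RA groups replicate 1 is above replicate 2 for each gene shown, from 166 and 30.8 RPKM of Col4a1 to 248 and 193 RPKM of Col18a1 in WT cells.

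FACIT genes split into a strongly expressed member and many low ones. Without the filter, 5 of 9 were higher in GLP 3A cells and 7 of 9 in WT cells, with median differences of 0.48 in GLP 3A and 0.74 in WT cells. Col12a1, which binds collagen I fibrils in dense connective tissue, was at 15.6 and 20.8 RPKM in RA-treated GLP 3A cells and 19.9 and 26.6 RPKM in RA-treated WT cells, against 0.0448 and 0.0559 RPKM in untreated GLP 3A cells and 0.0304 and 0.0485 RPKM in untreated WT cells. It rose by 4.18 ± 0.18 in GLP 3A cells (limma, adjusted p 1.14e-05) and 4.53 ± 0.18 in WT cells (adjusted p 8.66e-06), and its RA levels overlapped between genotypes. Col14a1, a collagen that limits the width of fibrils, was at 0.272 and 0.849 RPKM in RA-treated GLP 3A cells and 5.40 and 6.05 RPKM in RA-treated WT cells, against 0.0763 and 0.118 RPKM in untreated GLP 3A cells and 0.0166 and 0.0128 RPKM in untreated WT cells. Only the RA-treated WT libraries were above 1 RPKM, so Col14a1 passed the filter through them. Without the filter its adjusted p (limma, RA against untreated) was 0.000117 in WT cells and 0.061 in GLP 3A cells. Col14a1 rose by 2.73 ± 0.18 in WT cells (adjusted p 4.83e-05), and its difference of 0.48 ± 0.18 in GLP 3A cells lay at the threshold without being called (adjusted p 0.0514). It was called with the replicate number as a block (adjusted p 0.0354), with pseudocounts of 0.5 and 0.1 (adjusted p 0.038 and 0.022), with median-of-ratios scaling (adjusted p 0.0493), with no intensity trend (adjusted p 0.0434) and without GLP 3A RA replicate 1 (adjusted p 0.00229). Col9a2, a chain of the FACIT collagen of cartilage, was already at 1.54 to 2.62 RPKM in the 4 untreated libraries and was at 2.48 to 4.70 RPKM in the 4 RA libraries. It was called higher with RA in WT cells, by 1.04 ± 0.17, and not in GLP 3A cells, at 0.29 ± 0.17 (adjusted p 0.167), and the difference of its responses was not called. Col9a3 and Col22a1 were called higher in both genotypes and stayed at or under 2.48 RPKM. For Col9a3, which overlaps the Tcfl5 locus, the call in WT cells was lost without WT RA replicate 1 or WT untreated replicate 2 (adjusted p up to 0.097) and with quantile normalization, where the difference was 0.17 (adjusted p 0.369). Col9a1, Col16a1, Col19a1 and Col20a1 stayed under 0.84 RPKM.

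The other collagens held the widest range of levels. Without the filter 8 of 17 were higher and 1 lower with RA in GLP 3A cells, and 7 were higher and 2 lower in WT cells. The medians were 0.23 in GLP 3A and 0.05 in WT cells. Col18a1 was at 219 and 203 RPKM in RA-treated GLP 3A cells and 248 and 193 RPKM in RA-treated WT cells, against 68.14 and 59.95 RPKM in untreated GLP 3A cells and 89.1 and 84.5 RPKM in untreated WT cells. It rose with RA, by 1.71 ± 0.13 in GLP 3A cells (limma, adjusted p 8.1e-05) and 1.32 ± 0.13 in WT cells (adjusted p 0.000223). Col6a1, a chain of the beaded collagen VI filaments around muscle and other cells, was at 3.61 and 3.57 RPKM in RA-treated GLP 3A cells and 1.33 and 1.69 RPKM in RA-treated WT cells, against 0.103 and 0.124 RPKM in untreated GLP 3A cells and 0.0753 and 0.0522 RPKM in untreated WT cells. Its neighbour and partner Col6a2 was at 2.74 and 1.97 RPKM in RA-treated GLP 3A cells and 1.70 and 1.51 RPKM in RA-treated WT cells, and at most 0.248 RPKM untreated. Col6a3, whose chain completes the common form of collagen VI, was at most 0.115 RPKM in any library. Col7a1, the anchoring fibril collagen below the epidermis, was at 3.14 and 2.43 RPKM in RA-treated GLP 3A cells and 1.58 and 1.54 RPKM in RA-treated WT cells, against 0.3638 and 0.2998 RPKM in untreated GLP 3A cells and 0.465 and 0.479 RPKM in untreated WT cells. Its locus overlaps Mir711. Col6a1, Col6a2 and Col7a1 were called higher with RA in both genotypes.

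Members that were lower with RA were few and low. Col17a1, a transmembrane collagen of epidermal attachment, was at 0.244 and 0.144 RPKM in RA-treated GLP 3A cells and 0.0826 and 0.111 RPKM in RA-treated WT cells, against 0.552 and 0.378 RPKM in untreated GLP 3A cells and 0.348 and 0.360 RPKM in untreated WT cells. Without the filter it was called lower with RA in both genotypes. Col6a4 was at 0.0208 and 0.00946 RPKM in RA-treated WT cells, against 0.213 and 0.210 RPKM in untreated WT cells, and was called lower in WT cells without the filter. It was between 0.0165 and 0.0536 RPKM in the 4 GLP 3A libraries. Of the other members of this class, Col8a1 reached 1.02 RPKM in 1 library and the rest stayed under 0.83 RPKM, with Col10a1 listed at 0 in 7 of 8 libraries and Col28a1 in 5.

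The untreated genotypes were compared first. Of the 21 tested members 1 was called, Col2a1, which was higher in untreated GLP 3A than in untreated WT cells by 0.52 ± 0.10 (limma, adjusted p 0.0289), beside 7.52% of all tested genes higher and 4.15% lower. The Col2a1 call was lost when either untreated library of either genotype was left out (adjusted p up to 0.164). Col18a1 was lower by 0.43 ± 0.13 in untreated GLP 3A cells without passing the threshold (adjusted p 0.0843), although its untreated libraries did not overlap between genotypes. It was called with the replicate number as a block (adjusted p 0.0325), with only the untreated libraries (adjusted p 0.0284) and without either RA-treated WT library (adjusted p up to 0.0418). Without the filter, Col2a1 and the low member Col5a3 were called higher and Col13a1, Col20a1 and Col6a4 lower, 2 and 3 of 43 beside 4.59% of all genes higher and 2.48% lower.

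With RA, 6 of the 21 tested members were called, 4 higher and 2 lower in GLP 3A than in WT cells, beside 5.3% of all tested genes higher and 5.31% lower. Higher in GLP 3A cells were Col4a6 by 1.504 ± 0.19 (limma, adjusted p 0.0121), Col6a1 by 0.87 ± 0.11 (adjusted p 0.0117), Col7a1 by 0.56 ± 0.12 (adjusted p 0.038) and Col1a1 by 0.53 ± 0.11 (adjusted p 0.0358). Lower were Col14a1, at -2.13 ± 0.18 (adjusted p 0.0042), and Col2a1, at -0.95 ± 0.10 (adjusted p 0.0083). In each of these 6 genes both RA-treated GLP 3A libraries lay on the same side of both RA-treated WT libraries. The calls came from these same libraries, so this separation was likely in advance and adds no support. Col4a6 passed the filter through the GLP 3A libraries and Col14a1 through the WT libraries. Without the filter 4 of 43 were higher and 3 lower, beside 3.35% of all genes higher and 2.94% lower. Of the 6, Col1a1 was then not called (adjusted p 0.0607), while the low members Col22a1 (adjusted p 0.0475) and Col19a1 (adjusted p 0.0438) were called higher and lower. The calls of Col14a1, Col2a1 and Col6a1 held with any 1 of the 8 libraries left out, with adjusted p at most 0.0294, 0.0464 and 0.0446. That of Col4a6 was lost without either RA-treated WT library (adjusted p up to 0.0556). The Col1a1 call was lost in 6 of the 8 such fits, holding without GLP 3A RA replicate 2 or WT RA replicate 2 (adjusted p up to 0.103), and also with a pseudocount of 0.1 (adjusted p 0.0534). The Col7a1 call was lost in 7 of 8, holding without GLP 3A RA replicate 2 (adjusted p up to 0.122), and also with a pseudocount of 0.1 (adjusted p 0.0711) and with quantile normalization (adjusted p 0.0715). When the fit held only the 4 RA-treated libraries all 6 calls were lost, with adjusted p of 0.12 to 0.231.

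Several strongly expressed members were not called between the genotypes with RA. Col4a1 differed by -0.75 ± 0.77, Col4a2 by -0.52 ± 0.68, Col4a5 by -0.71 ± 0.26 (limma, adjusted p 0.134), Col1a2 by -0.36 ± 0.34, Col3a1 by -0.33 ± 0.14 (adjusted p 0.19), Col12a1 by -0.34 ± 0.18 and Col18a1 by -0.05 ± 0.13. Col4a1 and Col4a2 had standard errors about as large as their differences, so a difference of that size was not detectable here. Genotype also moved with chromosome. Over all tested genes the median difference between GLP 3A and WT cells was -0.24 on chromosome 1 untreated and -0.31 with RA, and 0.24 on chromosome 11 in both conditions. On the 17 other autosomes it lay between -0.00 and 0.08 untreated and between -0.06 and 0.005 with RA. Chromosome 1 holds 7 members, among them Col3a1 and Col5a2, and chromosome 11 holds Col1a1 and Col23a1. The part of these shifts in the difference of Col1a1 was not tested. The other 5 called members lie elsewhere.

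**Figure D5:**
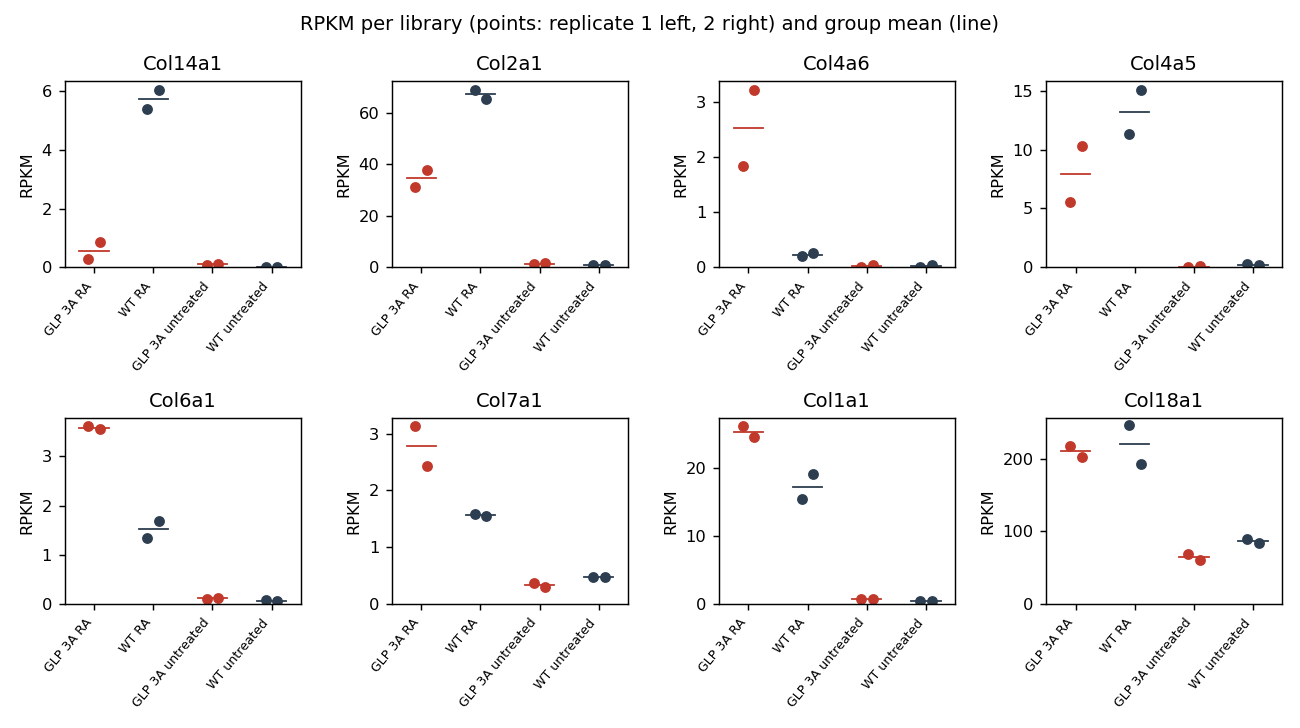
RPKM of the 6 collagen genes called between genotypes with RA, and of Col4a5 and Col18a1, which were not called, with a point per library and a line at the mean of each of the 4 groups. In RA-treated cells Col4a6, Col6a1, Col7a1 and Col1a1 are higher in GLP 3A than in WT cells and Col14a1 and Col2a1 are lower, without overlap. The 6 genes were picked by their calls in these libraries, so the lack of overlap adds no support.

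The RA response itself differed between the genotypes in 2 of the 21 tested members, 2 lower and 0 higher in GLP 3A than in WT cells, beside 1.24% of all tested genes lower and 0.561% higher. At an unadjusted p under 0.05 there were 3 lower and 5 higher. The response of Col14a1 in GLP 3A cells minus that in WT cells was -2.24 ± 0.26 (limma, adjusted p 0.0217). For Col2a1 this difference of responses was -1.47 ± 0.15 (adjusted p 0.0192). Both calls were lost when any 1 untreated library or either RA-treated WT library was left out, with adjusted p up to 0.145 for Col14a1 and 0.129 for Col2a1. The responses of Col4a6 and Col6a1 were greater in GLP 3A cells by 1.52 ± 0.27 and 0.81 ± 0.15 without passing the threshold (adjusted p 0.0528 and 0.0599). With a pseudocount of 0.1 the call of Col14a1 was lost. Without the filter Col14a1 and Col2a1 were called (limma, adjusted p 0.0302 and 0.0293). The low member Col6a4, at most 0.213 RPKM, was then called in the other direction, by 0.278 ± 0.037 (adjusted p 0.0433).

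Genes that make and handle collagen were put in lists, and their calls between genotypes are from the filtered fit. Of 48 listed genes tested there, 7 were higher and 2 lower in untreated GLP 3A cells, beside 7.52% and 4.15% of all tested genes. With RA 5 were higher and 3 lower in GLP 3A cells, beside 5.3% and 5.31%. Responses of the lists to RA are likewise counted without a filter on low values. Over all genes, 26.3% were higher and 26.9% lower with RA in GLP 3A cells, and 25.8% higher and 24.7% lower in WT cells. Of 16 genes for collagen hydroxylation and folding, 13 were higher and 1 lower with RA in GLP 3A cells and 14 were higher in WT cells, with median differences of 0.64 and 0.69. Serpinh1, the chaperone HSP47 that binds newly made collagen in the endoplasmic reticulum, was at 393 and 395 RPKM in RA-treated GLP 3A cells and 415 and 349 RPKM in RA-treated WT cells. Untreated it was at 48.4 and 47.2 RPKM in GLP 3A cells, against 20.7 and 20.6 RPKM in WT cells. The untreated libraries did not overlap between genotypes while the RA libraries did. Serpinh1 was higher by 1.17 ± 0.09 in untreated GLP 3A than in untreated WT cells (limma, adjusted p 0.00179), and its difference of responses was -1.12 ± 0.13 (adjusted p 0.0217). Leprel1, the prolyl 3-hydroxylase P3H2, was at 2.31 and 2.21 RPKM in RA-treated GLP 3A cells and 12.2 and 6.74 RPKM in RA-treated WT cells, a difference of -1.63 ± 0.24 (adjusted p 0.0168). P4ha3, a subunit of prolyl 4-hydroxylase, was at 3.11 and 2.22 RPKM in RA-treated GLP 3A cells and 4.48 and 5.48 RPKM in RA-treated WT cells, and was called lower in GLP 3A cells. P4hb, for the other subunit, and Plod1, a lysyl hydroxylase, were called higher in RA-treated GLP 3A cells by 0.38 each. In untreated GLP 3A cells P4hb was called higher, by 0.78, and Fkbp10, a prolyl isomerase of the same list, lower, by a difference of -0.83. Both lie on chromosome 11.

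Of 13 genes for propeptide cleavage and cross-linking, 9 were higher and 3 lower with RA in GLP 3A cells and 8 were higher and 2 lower in WT cells, so that the share of lower genes was near that of all genes. Bmp1, the protease that trims fibrillar procollagens, rose by 3.40 ± 0.13 in GLP 3A cells and 3.26 ± 0.13 in WT cells. Loxl2, a lysyl oxidase that cross-links collagen IV among other chains, was at 29.8 and 33.4 RPKM in RA-treated GLP 3A cells and 29.1 and 30.2 RPKM in RA-treated WT cells, against 3.30 and 3.23 RPKM in untreated GLP 3A cells and 4.78 and 4.42 RPKM in untreated WT cells. Pcolce2, an enhancer of procollagen cleavage, moved the other way, at 1.60 and 1.82 RPKM in RA-treated GLP 3A cells and 0.995 and 1.35 RPKM in RA-treated WT cells, against 34.2 and 34.0 RPKM in untreated GLP 3A cells and 27.5 and 24.4 RPKM in untreated WT cells. Among 12 collagen-degrading proteases and inhibitors, 7 were higher in GLP 3A cells and 6 in WT cells with RA. Timp2, a metalloproteinase inhibitor on chromosome 11, was higher in RA-treated GLP 3A cells, at 26.1 and 29.2 RPKM, than in RA-treated WT cells, at 17.4 and 20.7 RPKM. Mmp14 and Timp1 were also called higher in RA-treated GLP 3A cells and Loxl3 lower, and Timp1 and Timp3 were called higher and Loxl2 lower in untreated GLP 3A cells. In the filtered fit 2 of 8 tested proteases and inhibitors were thus higher in untreated GLP 3A cells and 3 of 8 with RA. Without the filter 0 of 12 were called between the untreated genotypes, and 2 of 12 were higher in GLP 3A cells with RA.

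Of 12 fibril-binding proteoglycans and glycoproteins, 7 were higher and 1 lower with RA in GLP 3A cells and 6 were higher and 1 lower in WT cells. The gene that was lower was Fn1, fibronectin, at 128 and 96.0 RPKM in RA-treated GLP 3A cells and 133 and 114 RPKM in RA-treated WT cells, against 196 and 210 RPKM in untreated GLP 3A cells and 310 and 297 RPKM in untreated WT cells. Sparc, which binds collagens in the secretory path, lies on chromosome 11 and was at 485 and 538 RPKM in RA-treated GLP 3A cells and 612 and 485 RPKM in RA-treated WT cells, against 262 and 242 RPKM in untreated GLP 3A cells and 91.6 and 79.6 RPKM in untreated WT cells. Its difference between the untreated genotypes was 1.55 ± 0.14, and its difference of responses was -1.64 ± 0.19 (limma, adjusted p 0.0221). Of 7 collagen receptors, 4 were higher and 1 lower with RA in GLP 3A cells and 4 were higher in WT cells. The receptor tyrosine kinase gene Ddr1 and the integrin gene Itga1 were called higher in untreated GLP 3A cells, and the difference of responses of Ddr1 was -1.12 ± 0.12 (adjusted p 0.0193). Of 5 basement membrane partners, 3 were higher with RA in each genotype. Pxdn, the peroxidase that forms the sulfilimine bonds of collagen IV, was at 35.9 and 43.2 RPKM in RA-treated GLP 3A cells and 48.0 and 41.6 RPKM in RA-treated WT cells, and between 1.97 and 2.55 RPKM untreated.

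Markers of matrix-producing cell types were measured beside the fibrillar genes. The 12 fibroblast or feeder markers summed to 28.5 and 47.5 RPKM in RA-treated GLP 3A cells and 51.0 and 67.0 RPKM in RA-treated WT cells, against 5.65 and 6.56 RPKM in untreated GLP 3A cells and 6.51 and 6.75 RPKM in untreated WT cells. Of them Lum was listed at 0 in the 4 untreated libraries and was at most 0.277 RPKM with RA. Thy1 went down with RA, to 1.36 and 0.866 RPKM in GLP 3A cells and 0.945 and 1.10 RPKM in WT cells. Untreated it was at 3.46 and 3.42 RPKM in GLP 3A cells and 3.20 and 3.17 RPKM in WT cells. In the fit without a filter, 9 of the 12 were higher and 1 lower with RA in GLP 3A cells, and 8 higher and 1 lower in WT cells. Over all genes of that fit, 26.3% were higher and 26.9% lower in GLP 3A cells, and 25.8% higher and 24.7% lower in WT cells. The same shares stand beside the counts of the chondrocyte list below. The 6 smooth muscle markers summed to 1359 to 2105 RPKM in RA-treated GLP 3A cells and 1007 to 1417 RPKM in RA-treated WT cells, against 18.8 to 20.1 RPKM in untreated GLP 3A cells and 8.55 to 9.38 RPKM in untreated WT cells. The 8 chondrocyte markers summed to 17.5 and 22.0 RPKM in RA-treated GLP 3A cells and 25.7 and 27.3 RPKM in RA-treated WT cells, against 2.43 to 2.66 RPKM in untreated GLP 3A cells and 2.57 to 2.76 RPKM in untreated WT cells. Among these Sox9, the transcription factor that switches on Col2a1 in cartilage, was at 3.74 and 5.76 RPKM in RA-treated GLP 3A cells and 6.57 and 8.73 RPKM in RA-treated WT cells, and at most 0.0923 RPKM untreated. Of the 6 chondrocyte markers tested in the filtered fit, Sox9 among them, 0 were called between the RA-treated genotypes. Acan, of the same list, went down with RA. It was at 0.448 and 0.308 RPKM in RA-treated GLP 3A cells and 0.129 and 0.0567 RPKM in RA-treated WT cells. Untreated it was at 1.19 and 1.10 RPKM in GLP 3A cells and 0.453 and 0.524 RPKM in WT cells. In the fit without a filter, 6 of the 8 were higher and 1 lower with RA in GLP 3A cells, and 6 higher and 2 lower in WT cells. The 5 osteoblast markers, whose sum is nearly all Alpl (149.8 of 150.0 RPKM in untreated GLP 3A replicate 1) and whose defining gene Sp7 was at most 0.110 RPKM, summed to 26.0 to 58.0 RPKM in RA-treated GLP 3A cells and 10.8 to 26.5 RPKM in RA-treated WT cells, against 146 to 150.0 RPKM in untreated GLP 3A cells and 137 to 142 RPKM in untreated WT cells. Summed endothelial markers were 11.2 to 16.2 RPKM in RA-treated GLP 3A cells and 6.36 to 13.6 RPKM in RA-treated WT cells, against 34.8 to 35.1 RPKM in untreated GLP 3A cells and 24.66 to 25.03 RPKM in untreated WT cells. Most of the untreated endothelial sum was Pecam1, at 26.6 and 25.7 RPKM in untreated GLP 3A cells and 19.3 and 20.2 RPKM in untreated WT cells, while Cdh5 and Kdr were at most 0.201 RPKM untreated and between 0.479 and 2.59 RPKM with RA. Neural progenitor markers summed to 61.03 to 68.99 RPKM in RA-treated GLP 3A cells and 68.4 to 81.6 RPKM in RA-treated WT cells, against 46.2 to 48.9 RPKM in untreated GLP 3A cells and 26.8 to 27.7 RPKM in untreated WT cells. Of the 10 pluripotency markers, 2 were called higher and 0 lower in RA-treated GLP 3A than in RA-treated WT cells, with and without the filter. In the filtered fit 3 of 11 endoderm markers were lower and 0 higher. Of the fibroblast markers 1 of 7 was lower, and of the neural progenitor markers 1 of 4. Of the smooth muscle markers 1 of 5 was higher, and of the endothelial markers 1 of 7. Without the filter 1 of 13 endoderm markers was lower, and 0 neural progenitor or endothelial markers were called. Over all genes of the filtered fit 5.3% were higher and 5.31% lower. The part of these cell types in the collagen differences was not tested.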

How the data were processed

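RNA-seq was analysed in 8 of the 40 samples of the series; the other 32 are not analysed here. Per the submitters' processing notes, the authors used Bowtie 0.12.7, SAMtools, TopHat and Cufflinks with build mm9, and each deposited file gives RPKM for gene symbols with their loci, per the file headers. No version of the other tools and no strand protocol or rule for overlapping genes is given in the sources used here, so genes with overlapping loci are uncertain. The files hold no counts, so relative depth was taken from the most common ratio between libraries of values at or under 0.02 RPKM (tolerance 4%). At the chosen depths 25.4% to 47.2% of ratios matched, against 0.6% to 2.0% at the median depth tried.

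Moderated two-sided tests on log2(RPKM + 1) came from limma 3.58.1 (R 4.3.3), with 4 group means over all 8 libraries and an intensity trend, and Benjamini-Hochberg adjustment over 13198 genes, those that reached 1 RPKM in 2 or more libraries, in 5 comparisons. The scripts were tested on simulated data. Named with values were members with a group mean of at least 10 RPKM, members called between genotypes and the collagen IV pairs; Col5a2, Col6a2, Col6a3, Col6a4, Col9a2, Col17a1 and Col27a1 were named after their values were seen. The members, classes, side lists and markers were chosen with earlier results of these data known. Promoters are from RefSeq (GRCm38.p6). Other settings tried were pseudocounts of 0.1 and 0.5, no filter, a minimum of 5 RPKM, scaling by median of ratios or quantiles, no trend, only the groups compared, a replicate block, no chromosomes 1 and 11, and each library left out.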

Additional observations from a re-analysis of the deposited data

Results flagged for a closer look

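In the filtered fit the RA response differed between GLP 3A and WT cells, by the interaction test, in 2 of the 21 collagen genes tested. Both were lower in GLP 3A cells, beside 1.24% of all tested genes. Neither call held under every setting tried, and that of Col14a1 was lost with a pseudocount of 0.1. Without the filter the low gene Col6a4 was called in the other direction. For Col14a1 the response in GLP 3A cells minus that in WT cells was -2.24 on the log2(RPKM + 1) scale. For Col2a1 it was -1.47. Both RA-treated GLP 3A libraries were below both RA-treated WT libraries for each gene, which adds no support because the calls came from the same libraries.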

How the results depend on the processing

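Members called in either direction, of 21 tested, are given here under the settings that moved the count by over 1.5 times; the cause was not tested where none is stated. Between untreated GLP 3A and WT cells the count of 1 became 2 with a pseudocount of 0.1, 2 with the replicate block, 4 with only the groups compared and 5 of 43 with no filter. With RA the 6 calls became 3 with a filter of 5 RPKM, which tested 12 members, and 0 with only the groups compared. For RA against untreated cells, the filters changed how many members were tested: GLP 3A cells had 29 calls with no filter and 11 with a filter of 5 RPKM, against 18, and WT cells had 32 and 12, against 20. The 2 differences of responses became 1 with a pseudocount of 0.1 and 4 with no intensity trend. With each library left out in turn, the counts ran between 0 and 2 for untreated genotypes, 3 and 10 for genotypes with RA, 18 and 19 for RA in GLP 3A cells, 19 and 20 for RA in WT cells and 0 and 6 for the difference of responses. The highest counts, 10 and 6, came without GLP 3A RA replicate 2. No member reversed its direction in a called comparison under these settings. Libraries with the same replicate number deviated together (Pearson's r of 0.169 to 0.355 between groups, across 13198 genes), but the labels do not say what a number shares. With the replicate block, which added Col18a1 between the untreated genotypes and Col14a1 for RA in GLP 3A cells, 19 members were called for RA in GLP 3A cells, 20 for RA in WT cells, 6 between genotypes with RA and 2 in the difference of responses. With 2 libraries per group and lower depth in replicate 2, values near 0 rest on few reads, and small differences among them were not detectable.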

Other observations

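Some low collagen genes differed between genotypes in the fit without a filter on low values, all under 0.73 RPKM. Col5a3, a chain of collagen V, was at 0.488 and 0.388 RPKM in untreated GLP 3A cells, against 0.172 and 0.171 RPKM in untreated WT cells. Col13a1, a transmembrane collagen of the neuromuscular junction, was at 0.208 and 0.183 RPKM in untreated GLP 3A cells, against 0.571 and 0.721 RPKM in untreated WT cells. Col20a1, a FACIT collagen, was at 0.0173 and 0.0355 RPKM in untreated GLP 3A cells, against 0.251 and 0.255 RPKM in untreated WT cells. With RA, Col20a1 was at 0.165 and 0.102 RPKM in GLP 3A cells, against 0.194 and 0.253 RPKM in WT cells.

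The replicates also differed in genes outside the collagens. Ttr, listed among the endoderm markers, was at 1.05 and 32.8 RPKM in RA-treated GLP 3A cells, 0.702 and 10.01 RPKM in RA-treated WT cells, 0.0562 and 22.3 RPKM in untreated GLP 3A cells and 0.106 and 13.7 RPKM in untreated WT cells. It was higher in replicate 2 of every group, while Col4a1 and Col4a2 were higher in replicate 1 of both RA groups.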
